A study of Mus musculus with 2 samples.

Results

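The cells described here were 135 of the 7332 cells retained from the femurs of 2 mice, 22 of 2750 in Mouse #1 and 113 of 4582 in Mouse #2. They were chosen by transcripts counted as UMIs, molecular tags that let each captured transcript be counted once. A cell had at least 1000 genes detected and at most 15% mitochondrial UMIs. The fibroblast genes Aspn, Mfap5, Col14a1 and Clec3b together reached 5 UMIs per 10000 in each cell. The reticular and adipocyte genes Adipoq, Lpl and Hp together stayed under 10 per 10000, and the osteocalcin genes Bglap and Bglap2 under 50. At most 1 UMI each of Ptprc, the pan-leukocyte CD45 gene, and of Cdh5, the endothelial VE-cadherin gene, was allowed. The working label for such cells was periosteal-like fibroblasts. Since its other markers were found mainly in some of the 135 cells, they are called Aspn-set cells.

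Both mice carried the genotype Cxcl12(GFP/+); Cxcl12-iCreER; R26R(tdTomato/+), received tamoxifen at P21 (postnatal day 21) and were studied at P28, so there was 1 group and no control genotype or treatment. In these animals GFP stands in the place of 1 Cxcl12 allele, the iCreER recombinase comes from a BAC transgene of 1 line under Cxcl12 regulatory sequence, and tdTomato marks cells in which it acted together with their descendants. The femurs had lost their distal growth plates and proximal ends, and the study's methods say that soft tissue was removed before enzymatic digestion. The labels name the sorted cells as GFP+ bone marrow mesenchymal cells, whereas 1 protocol field names tdTomato+ cells. Aspn-set cells made up 0.947% of the cells outside the hematopoietic gate in Mouse #1 (22 of 2324, 95% Wilson interval 0.626 to 1.43) and 2.70% in Mouse #2 (113 of 4178, 2.26 to 3.24). The intervals did not overlap, they cover counting error only, and both shares are shares of what passed the sort.

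The periosteum is the connective tissue sheath on the outer surface of bone. Its outer layer is made of fibroblasts embedded in collagen and elastic fibers, and its inner layer holds cells that form bone during growth and repair. Fibroblasts of such sheaths are known for fibrillar collagens, for small leucine-rich proteoglycans that space the collagen fibrils, for Mgp, a secreted inhibitor of mineralization, and for secreted Igf-binding and Wnt-modulating proteins. Bone marrow reticular cells lie inside the bone around sinusoids, and are known for Cxcl12, Kitl and other factors used by hematopoietic cells. Preosteoblasts are matrix-forming cells on the way to osteoblasts, with Alpl, Ibsp and Mmp13 among their genes.

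Promoters of genes that set these cells apart are shown first, each as the 250 bases that precede the transcription start in the RefSeq promoter table of GRCm38.p6. Capitals mark 1 of 3 motifs searched on both strands: TATAAA, the TATA box, TGANTCA, the AP-1 site, and TGACGTCA, the cAMP response element, which do not overlap one another in the windows shown. Apod (chr16:31314809-31315058, minus strand), Has1 (chr17:17855189-17855438, minus strand) and Itgbl1 (chr14:123659890-123660139, plus strand) are markers that the choice of cells did not use, Igfbp6 (chr15:102143936-102144185, plus strand) had the largest fold change against reticular cells of the genes named by rule, and Aspn (chr13:49544193-49544442, plus strand) is the gene on which membership turned in many cells. Mgp is named only.
Apod: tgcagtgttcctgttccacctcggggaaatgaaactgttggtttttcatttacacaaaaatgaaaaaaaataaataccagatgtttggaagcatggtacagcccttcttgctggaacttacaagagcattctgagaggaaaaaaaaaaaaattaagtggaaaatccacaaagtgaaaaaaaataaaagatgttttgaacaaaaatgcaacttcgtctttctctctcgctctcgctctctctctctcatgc
Has1: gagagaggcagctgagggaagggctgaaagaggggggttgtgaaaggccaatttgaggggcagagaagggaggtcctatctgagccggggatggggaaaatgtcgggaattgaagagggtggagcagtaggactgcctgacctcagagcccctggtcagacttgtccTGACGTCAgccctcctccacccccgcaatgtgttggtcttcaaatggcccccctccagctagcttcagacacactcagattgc
Itgbl1: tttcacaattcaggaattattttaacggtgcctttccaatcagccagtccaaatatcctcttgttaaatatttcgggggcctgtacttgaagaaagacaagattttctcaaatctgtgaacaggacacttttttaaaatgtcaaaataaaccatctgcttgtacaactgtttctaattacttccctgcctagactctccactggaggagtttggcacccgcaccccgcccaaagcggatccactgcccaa
Igfbp6: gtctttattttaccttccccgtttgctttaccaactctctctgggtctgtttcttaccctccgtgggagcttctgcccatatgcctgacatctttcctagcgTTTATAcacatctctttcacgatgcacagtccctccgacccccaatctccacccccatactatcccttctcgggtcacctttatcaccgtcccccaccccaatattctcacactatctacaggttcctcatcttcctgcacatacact
Aspn: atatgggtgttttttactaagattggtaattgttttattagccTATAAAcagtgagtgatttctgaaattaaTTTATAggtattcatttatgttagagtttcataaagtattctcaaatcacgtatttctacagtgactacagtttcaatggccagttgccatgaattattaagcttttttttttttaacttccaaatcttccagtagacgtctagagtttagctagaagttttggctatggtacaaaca
The cAMP response element began 83 bases before the start of Has1, and was held by 1.62% of the 27025 promoters in the table. Igfbp6 had 1 TATA motif, first base 148 bases before the start, and Aspn had 2, at 207 and 178 bases, against 13% of all promoters with at least 1. Apod and Itgbl1 held none of the 3 motifs in these windows. Of the 13 genes found in the table among those named below as higher in Aspn-set cells, 3 held TATAAA (Dio2, Igfbp6, Il33), 1 held TGANTCA (F3) and 3 held TGACGTCA (Hhip, Dio2, Has1). These are matches of letters and nothing was measured at these sequences.

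The 135 cells were not of 1 kind. Aspn, a small leucine-rich proteoglycan of collagenous tissue, had a UMI in 132 of them, whereas Col14a1, a fibril-associated collagen, had one in 86, Mfap5, a microfibril protein, in 61, and Clec3b, which encodes tetranectin, in 47. The limit was reached by Mfap5, Col14a1 and Clec3b alone in 71 cells, 16 of 22 in Mouse #1 (72.7%, Wilson interval 51.8 to 86.8) and 55 of 113 in Mouse #2 (48.7%, 39.7 to 57.8). The other 64 cells needed Aspn, and 47 of these had no UMI of the other 3 genes. These are called Aspn-dependent cells. Over all 135 cells the sum of the 4 genes had a median of 15.8 and a maximum of 54.0 per 10000, with 5.08 in the lowest cell inside the limit and 4.96 in the highest cell outside it. Between 5 and 6 per 10000 lay 8 cells, and 10 otherwise eligible cells lay between 4 and 5.

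The markers of the label that the choice did not use followed this division of the cells. Levels are given as UMIs per 1000000 UMIs of the cells in question (UPM), unscaled. Mgp was at 16191 UPM in Mouse #1 and 11988 in Mouse #2 in the 71 cells that reached the limit without Aspn, against 0 and 1659 in the Aspn-dependent cells. Apod, which encodes a lipid-binding apolipoprotein, was at 2460 and 3062 against 0 and 475. Has1, a hyaluronan synthase, was at 1035 and 477 against 0 and 16. Itgbl1, a secreted protein with integrin-like repeats, was at 714 and 385 against 0 and 62.0. In both mice all 4 markers were thus higher where the limit was reached without Aspn, and in the 6 Aspn-dependent cells of Mouse #1 none had a UMI.

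Most Aspn-dependent cells instead carried transcripts of bone-forming cells. Alpl, Ibsp and Mmp13 together reached 5 per 10000 in 55 of the 135 cells, and 51 of these were Aspn-dependent. Alpl, the alkaline phosphatase of mineralizing cells, was at 1912 and 1196 UPM in Aspn-dependent cells of Mouse #1 and Mouse #2 against 12.8 and 65.5 in the others. Sp7, the osterix transcription factor of the osteoblast lineage, was at 222 and 59.2 against 3.20 and 5.2. Tnc, which encodes the matrix glycoprotein tenascin-C, was at 4315 and 1931 against 54.5 and 87.3. Limch1 was at 1039 and 637 against 6.41 and 24.9, and the potassium channel gene Kcnk2 at 833 and 548 against 22.4 and 22.9. The median mitochondrial share was 5.99% in Aspn-dependent cells and 4.11% in the others, at median depths of 17572.5 and 18104 UMIs. The other markers of the label were thus found mainly in the 71 cells, of which 4 also reached 5 per 10000 of Alpl, Ibsp and Mmp13. The division was not complete. Of the 64 Aspn-dependent cells 51 reached that sum, and some of the others carried Mgp with little of it. In 1 Aspn-dependent cell of Mouse #2 Mgp was at 172 per 10000 and the sum at 1.39.

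**Figure D1:**
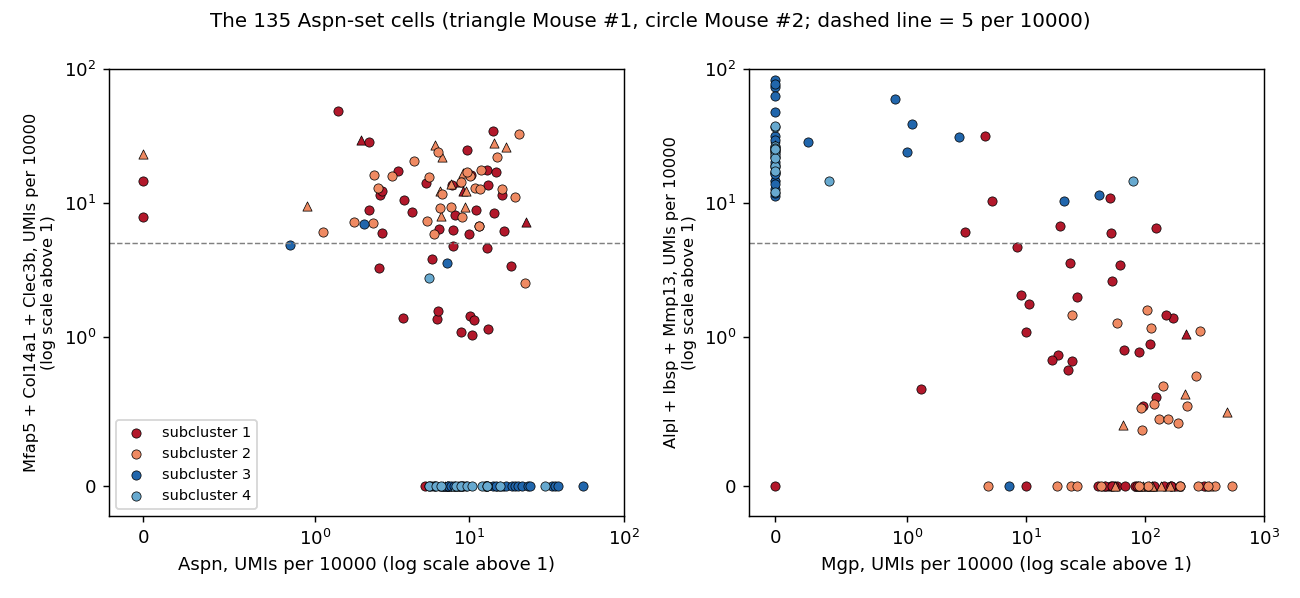
UMIs per 10000 in each of the 135 Aspn-set cells, with Aspn against the sum of Mfap5, Col14a1 and Clec3b on the left and Mgp against the sum of Alpl, Ibsp and Mmp13 on the right, on axes that are logarithmic above 1. Triangles are cells of Mouse #1, circles are cells of Mouse #2, colors are the 4 subclusters and the dashed line is 5 per 10000, and 47 cells lie at 0 on the left vertical axis.

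Clustering the 135 cells alone gave 4 subclusters (Leiden resolution 0.5), of 47, 39, 34 and 15 cells, each with cells of both mice. Their leading genes, ranked by fold over the other Aspn-set cells, are a description of the clustering. Subcluster 1 (4 and 43 cells) was led by Cxcl9, an interferon-induced chemokine, with the imprinted genes H19 and Igf2 and with Cd34 among its top genes. Cxcl9 had a UMI in 25.5% of these cells and H19 in 80.9%. H19 was at 2368 UPM there and at 310 in the other Aspn-set cells. Of the 47 cells of subcluster 1, 32 reached the limit without Aspn and 7 reached 5 per 10000 of Alpl, Ibsp and Mmp13. Subcluster 2 (12 and 27 cells) was led by the cytokine and chemokine genes Il6, Ccl2, Cxcl1 and Ccl7 and by Has1, with the transcription factor genes Foxd1 and Meox2. Il6 was at 604 there against 13.2 in the others, with a UMI in 82.1% of the cells. Ccl2 had a UMI in 41.0% of them. These 39 cells held none with the preosteoblast sum at 5 per 10000.

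Subcluster 3 (4 and 30 cells) was led by Sfrp2, a secreted Wnt modulator, Kcnk2 and Fat3, and also by Smpd3, Tnc, Limch1 and Postn. Of its 34 cells, 31 had Aspn as the only rule gene and 33 reached 5 per 10000 of Alpl, Ibsp and Mmp13. Sfrp2 had a UMI in 41.2% of the 34 and Kcnk2 in 94.1%. Subcluster 4 (2 and 13 cells) was led by Id1, a target of BMP signaling, the neuropeptide gene Npy and Grem1, a BMP antagonist, together with the stress and immediate early genes Hspa1a, Hspa1b and Fos. Of its 15 cells, 14 had Aspn alone and 15 reached the preosteoblast sum. Npy had a UMI in 40% of the 15, Grem1 in 46.7% and Fos in 100%. Mgp stood at 8098, 17359, 490 and 812 UPM in subclusters 1 to 4, and Apod at 1994, 3912, 86.7 and 65.8. Aspn itself was at 860, 865, 1450 and 1006, levels that the choice of cells fixed in part where Aspn was the only rule gene. At resolution 0.3 there were 2 subclusters, of 87 and 48 cells, and at 1.0 there were 7.

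The libraries held 54940400 and 88790688 UMIs, of which the Aspn-set cells contributed 438212 and 2025880, so sums of Mouse #1 rest on fewer cells and counts. A single Aspn-set cell had 1928 to 70235 UMIs. Of the cells retained, 7 barcodes occurred in both libraries, and none of them was an Aspn-set cell.

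Set against the other gates of the same libraries, the marker levels differed by orders of magnitude. The reticular gate took cells with Adipoq, Lpl and Hp at 10 per 10000 or more (1588 and 2942 cells), the preosteoblast gate took cells with Alpl, Ibsp and Mmp13 at 5 or more and few reticular transcripts (227 and 521), and the hematopoietic and endothelial gates took cells with at least 2 UMIs of Ptprc (426 and 404) or Cdh5 (145 and 139). All 4 gates kept the sum of the 4 rule genes under 5 per 10000. Mgp was at 11533 UPM in Aspn-set cells of Mouse #1 and 6563 in Mouse #2, at 58.7 and 85.4 in the reticular gate, at 72.9 and 72.7 in the preosteoblast gate, and at 21.4 and 11.3 in the hematopoietic gate. In the endothelial gate it was at 326 and 74.0, and in barcodes of 1 to 100 UMIs, which hold free RNA, at 223 and 176. No other gate of either mouse came near the level in Aspn-set cells, but all of them left out cells high in the 4 rule genes. In no gate were the 58 and 100 cells that reached the rule sum but failed the limit on Adipoq, Lpl and Hp. There Mgp was at 4738 and 2565 UPM and Apod at 1397 and 649, so high levels of these markers were not particular to the Aspn-set cells.

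Apod was at 1753 and 1703 UPM in Aspn-set cells against 19.8 and 37.9 in the reticular gate and 2.15 and 4.15 in the preosteoblast gate. Has1 was at 737 and 235 against 1.26 and 2.47 and against 0.953 and 1.14, and 163 of its 323 UMIs in Mouse #1 came from 1 cell. Itgbl1 was at 509 and 215 against 0.721 and 1.03, with 1 UMI in the preosteoblast gate of each mouse. Among the rule genes, Aspn was at 917 and 1074 against 3.29 and 6.26 in the reticular gate and 8.10 and 17.8 in the preosteoblast gate, which the choice of cells fixed. Thinned to 2000 UMIs per cell, which left out 1 shallower cell in Mouse #2, Mgp had a UMI in 72.7% and 62.5% of Aspn-set cells and in 0.941% and 0.990% of hematopoietic cells, a cell type that should lack it. Unthinned, the Aspn-set shares were 72.7% and 69.9%, at median depths of 19727 and 17418 UMIs against 11312 and 10029 in the hematopoietic gate. Itgbl1 after thinning was in 68.2% and 24.1% of Aspn-set cells and in 0 of 425 and 0 of 404 hematopoietic cells. Within Aspn-set cells Mgp ran from 0 through a median of 26.6 to 535 per 10000, Apod from 0 through 5.42 to 211, and Itgbl1 from 0 through 0.911 to 16.

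**Figure D2:**
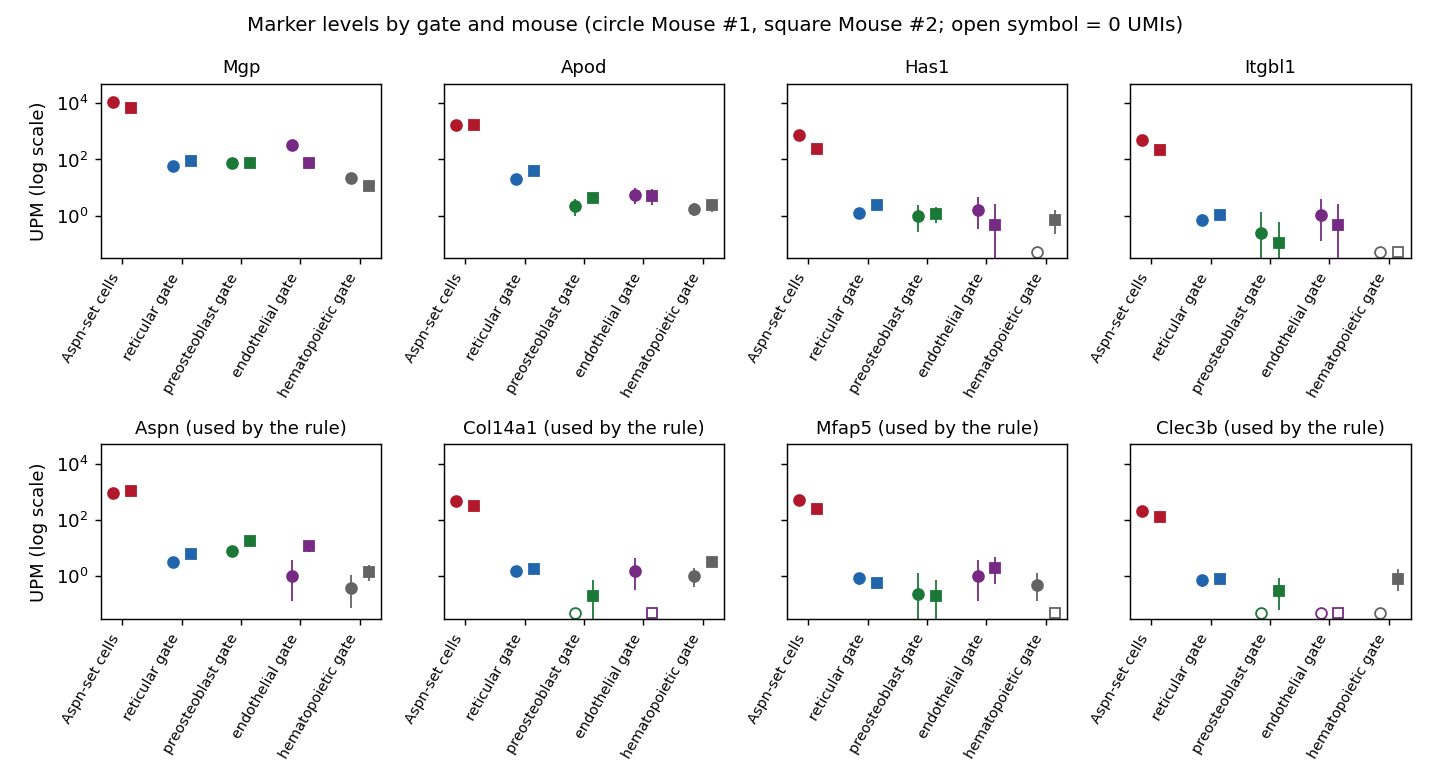
Levels as UMIs per 1000000 (UPM), on a logarithmic axis, of 4 markers not used by the rule (upper row) and the 4 genes used by it (lower row) in 5 gates, for Mouse #1 (circles) and Mouse #2 (squares). Bars are exact Poisson intervals of the summed counts, open symbols mark 0 UMIs, and Mgp is at 11533 and 6563 in Aspn-set cells and under 330 in each other gate.

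Some defining markers of other connective and contaminating cell types had no UMI. In Aspn-set cells no UMI was found of Rgs5 and Myh11 (mural cells), Kera and Thbs4 (tendon), Col9a1 and Matn1 (cartilage), Sox10 and Mbp (Schwann cells), Kdr and Tie1 (endothelium), Pf4, Ppbp and Gp9 (megakaryocytes), or 7 of 9 skeletal muscle genes. Summed tenocyte markers reached 5 per 10000 in 6 cells, chondrocyte markers in 6, mural markers in 14, Schwann and nerve sheath markers in 12, synovial lining markers in 1, endothelial markers in 11, erythroid markers in 11 and myeloid markers in 3, and lymphoid, megakaryocyte and muscle markers in none. These zeros covered 2 of 6 tenocyte, 2 of 7 chondrocyte, 2 of 8 mural and 2 of 7 endothelial markers. The sums of some whole lists were above the reticular gate. Summed tenocyte markers stood at 121 and 71.6 UPM against 20.5 and 19.3 there, endothelial markers at 219 and 168 against 74.7 and 78.9, and adventitial fibroblast markers at 799 and 883 against 62.5 and 67.6. Mural markers were lower, at 192 and 226 against 264 and 316. Osteoclast markers reached 5 per 10000 in 33 cells, on a list that includes Ctsk, which mesenchymal cells also express. Adventitial fibroblast markers (Pi16, Cd34, Ly6a and others) reached 5 per 10000 in 59 cells, while Dpp4 had 0 UMIs. This list summed to 4132 and 3252 UPM in the endothelial gate, above the Aspn-set cells. The osteoblast lineage markers, a list that includes Col1a1, summed to 12366 and 13368 UPM, between the reticular gate (1935 and 2690) and the preosteoblast gate (17597 and 18355). The reticular marker list summed to 3384 and 2766, against 16627 and 17319 in the reticular gate. The part of these other cells in the results was not tested.

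For each gene the UMIs of a gate were summed per mouse and the sums compared with edgeR, first between Aspn-set and reticular-gate cells and then between Aspn-set and preosteoblast-gate cells, to find which genes set them apart from the 2 main mesenchymal classes of this sort. Values in CPM are such levels scaled by edgeR's TMM factors, and a gene was called at an adjusted p under 0.05. Errors of fold changes are standard errors derived from edgeR's F statistic. They rest on all sums fitted together and on information shared across genes, and are not the spread between the 2 mice. Both sides of a comparison had been gated on transcripts of the same cells, so genes that vary with the gate genes differed in part by the choice of cells, and the test says only that a difference was large beside the spread between mice. Against the reticular gate 1989 of 12552 genes (15.8%) were called, 1091 higher (8.69%) and 898 lower (7.15%), and 1980 of them went the same way in both mice. Against the preosteoblast gate 1143 genes (9.11%) were called, 850 higher (6.77%) and 293 lower (2.33%), of which 1140 went the same way in both mice. The median over all genes was -0.03 and -0.04 on the log2 scale. Because the 64 Aspn-dependent cells differed as described, counts are also given with the 71 other cells alone. Then 2115 of 12462 genes (17%) were called against the reticular gate, 1066 higher (8.55%) and 1049 lower (8.42%), and 2523 (20.2%) against the preosteoblast gate, 1340 higher (10.8%) and 1183 lower (9.49%). Of the genes called with all 135 cells 1452 and 1098 were called with the same sign. Counts of calls in the gene lists below stand beside these shares over all genes, which differed between comparisons and between sets of cells. A list count near such a share is no trait of the list.

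The highest fold changes from the reticular gate among the genes named were led by Igfbp6. Igfbp6 (chr15:102144362-102149511, plus strand), an Igf-binding protein with preference for Igf2, was at 235 and 162 CPM in Aspn-set cells against 0.220 and 0.131 in the reticular gate. It was in 41 of the 135 cells, and its log2 fold change was 10.10 ± 0.31 (adjusted p = 4.77e-05). Thy1, the surface antigen CD90, was at 130 and 88.0 CPM against 0.396 and 0.473, a difference of 7.85 ± 0.30 (adjusted p = 6.71e-05). For both genes the mice lay close together and the gates far apart.

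Sparcl1, the Sparc-like matricellular protein hevin, was at 810 and 552 CPM against 1.01 and 3.28, higher by 8.20 ± 0.50 on the log2 scale (adjusted p = 1.93e-04). Itgbl1 was higher by 8.60 ± 0.49 (adjusted p = 1.55e-04), Has1 by 7.93 ± 0.64 (4.86e-04), F3, which encodes tissue factor, by 7.62 ± 0.64 (5.86e-04), the secreted protein gene Crispld2 by 7.39 ± 0.29 (6.71e-05) and Dio2, a deiodinase that activates thyroid hormone, by 7.31 ± 0.41 (1.55e-04). Agtr2, an angiotensin II receptor, had 69 UMIs in Aspn-set cells and 2 in the reticular gate, a ratio of 843 with a counting interval of 225 to 7102, and was in 22 cells. Nov, a matricellular CCN protein, was higher by 9.28 ± 1.45 (adjusted p = 0.00645), but it was in 11 cells and 49 of its 60 UMIs in Mouse #1 came from 1 cell. Ccl11, the chemokine eotaxin, was higher by 8.30 ± 1.14 (0.00622) with 1 UMI in Mouse #1 and 149 UMIs from 9 cells in Mouse #2. Foxd1, a forkhead transcription factor, was at 100 and 21 CPM against 0.176 and 0.158, from 28 cells.

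Several of the same names led against preosteoblasts, where many had no UMI at all. Ntrk2, the neurotrophin receptor TrkB, had 136 UMIs in Aspn-set cells, 102 and 47.1 CPM, and 0 in the preosteoblast gate, and was at least 254-fold higher by a floor of 3 counts over the group. By the same floor Ccl11 was at least 281-fold, Foxd1 157-fold, Plekha6 146-fold, Zim1, an imprinted zinc finger gene, 123-fold and Hhip, a hedgehog-binding inhibitor, 89.8-fold higher. Hhip was in 19 cells, and 13 of its 30 UMIs in Mouse #2 came from 1 cell. With 1 or 2 UMIs in the preosteoblast gate, the ratios were 1280 for Thy1 (counting interval 227 to 50769), 1850 for Itgbl1 (510 to 15304), 1097 for Crispld2 (302 to 9093), 472 for Nov (82.4 to 18843) and 994 for Il33, an alarmin cytokine (176 to 39462). Sparcl1 was higher by 10.18 ± 0.64 on the log2 scale (adjusted p = 3.53e-04). All of these genes were called and were higher in both mice.

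Across the 17 fibroblast and periosteal markers, 13 were called higher and 1 lower than in the reticular gate, with a median log2 fold change of 5.14, and 12 were called higher and none lower than in the preosteoblast gate (median 3.09). Among the 71 cells alone the counts were 13 and 1, and 11 and 1. Mgp, Apod, Has1 and Itgbl1 in this list are also markers of the working label, and all were called higher in both comparisons. The counts and medians include them and so are not separate support for the label. Gsn, the actin-severing protein gelsolin, was at 4460 and 3745 CPM against 94.5 and 168 in the reticular gate, higher by 4.96 (adjusted p = 2.95e-04). S100a4 was at 198 and 142 CPM against 1.63 and 5.93, and Cd34, a sialomucin of fibroblasts, endothelium and progenitors, at 69.8 and 117 against 0.352 and 1.86. In Mouse #1, 41 of the 85 S100a4 UMIs came from 1 cell. The marker called lower was Pdgfrb, a PDGF receptor that reticular cells also express, at 261 and 281 CPM against 494 and 561. The mesenchymal transcription factor Prrx1 (433 and 477 CPM against 326 and 388) and vimentin (2334 and 2759 against 2163 and 2427) did not pass the test in either comparison.

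The collagen genes were mostly higher than in reticular cells. Of 16 listed collagens, 12 were called higher and none lower (median 1.41), and 6 were called higher and 1 lower than in the preosteoblast gate (median 0.51). The list holds fibrillar and beaded collagens and also others, such as Col8a1, Col12a1 and Col15a1. Col1a1, the main collagen of bone and fibrous tissue, was at 11095 and 11541 CPM against 806 and 1586 in the reticular gate, a difference of 3.24 (adjusted p = 0.00130), and was at 6961 and 10244 in the preosteoblast gate (0.40, adjusted p = 0.467). Col3a1, the collagen of pliable tissue, separated Aspn-set cells from both gates, at 8414 and 9033 CPM against 710 and 954 in the reticular gate and 387 and 1057 in the preosteoblast gate. Its differences were 3.39 (adjusted p = 0.00317) and 3.59 (0.00382). Col15a1, a basement membrane zone collagen, was at 102 and 122 CPM against 0.747 and 2.28 and against 1.88 and 7.93. Restricted to the 71 cells, 10 collagens were called higher than in the reticular gate and none lower, and 8 higher and 1 lower than in the preosteoblast gate. Col12a1, called higher than in the reticular gate (0.97, adjusted p = 0.00195), was then at -0.38 (0.0804).

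The small leucine-rich proteoglycans were high. Of 11 listed genes 9 were tested, 8 were called higher than in the reticular gate (median 1.79) and 7 higher than in the preosteoblast gate (median 2.14), and none lower. In the 71 cells alone 6 and 7 were called higher. Dcn, which encodes decorin, was at 12268 and 7178 CPM against 312 and 434 in the reticular gate and 749 and 1643 in the preosteoblast gate, with differences of 4.70 (adjusted p = 9.88e-04) and 3.02 (0.00619). Lum, the lumican gene, was at 2798 and 2065 CPM against 91.7 and 98.2 and against 456 and 619. Prelp was the exception to the first comparison, at 207 and 145 CPM against 274 and 443 in the reticular gate (adjusted p = 0.160), and was called higher than in the preosteoblast gate at 3.53 and 14.3.

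Elastic fiber genes divided. Of 19, 7 were called higher and 3 lower than in the reticular gate (median -0.24), and 8 higher and 1 lower than in the preosteoblast gate (median 0.66). With mouse as a block the first count was 7 and 6, and with the 71 cells alone the counts were 7 and 2, and 10 and 2. Eln, the elastin gene, was at 175 and 155 CPM against 5.71 and 8.69 and against 5.17 and 17.2. Of its UMIs, 38 of 75 in Mouse #1 and 74 of 303 in Mouse #2 came from 1 cell each. Fbln2, a fibulin of microfibrils, was at 140 and 111 against 0.483 and 1.58 and against 5.41 and 4.02, and Mfap4 at 263 and 80.3 against 1.45 and 1.76 and against 0.235 and 1.13. Fbln5 went the other way, at 466 and 291 CPM against 1243 and 1123 in the reticular gate, a log2 fold change of -1.68 (adjusted p = 0.00316), and so did Fbn1, the fibrillin gene, and Ltbp2.

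Of 17 listed matricellular and adhesive matrix genes 13 were tested, and 9 were called higher and 1 lower than in the reticular gate (median 1.89) and 6 higher and 2 lower than in the preosteoblast gate (median 0.97), with 7 and 1, and 7 and 4, in the 71 cells alone. Thbs2, a thrombospondin, was at 549 and 418 CPM against 94.1 and 106 and against 54.8 and 83.7. Tnc was called lower than in the preosteoblast gate, at 1306 and 1094 against 4143 and 2555 CPM, by -1.48 (adjusted p = 0.0115), and by -5.43 (1.25e-04) in the 71 cells alone. Of 14 listed genes of hyaluronan synthesis, binding and turnover 11 were tested, and 3 were called higher and 2 lower than in the reticular gate (median 0.17), and 2 higher and none lower than in the preosteoblast gate (median 0.13). Cd44, the hyaluronan receptor, was at 69.8 and 73.2 CPM against 25.4 and 25 in the reticular gate, and Ptx3, a hyaluronan-organizing pentraxin, at 90.8 and 60.9 against 434 and 481. The 71 cells alone gave 2 and 2, and 2 and 1, and with mouse as a block the second was 2 and 2.

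Of 23 listed proteases and inhibitors 21 were tested, and 8 were called higher and 1 lower than in the reticular gate (median 0.50) and 10 higher and 1 lower than in the preosteoblast gate (median 0.69). The counts with the 71 cells were 11 and 1, and 11 and 2, and mouse as a block gave 9 and 2 in the first. Timp1, an inhibitor of metalloproteinases, was at 466 and 402 CPM against 28.4 and 41.0 in the reticular gate, and Serpinf1, which encodes PEDF, was at 1103 and 669 against 111 and 147 and against 204 and 293. Pcolce, an enhancer of procollagen cleavage, was at 1199 and 961 CPM against 382 and 400 and against 477 and 531. Mmp9 was called lower than in the preosteoblast gate, at 2.33 and 29.2 against 280 and 217 CPM.

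Osteogenic genes differed from the reticular gate in opposite directions with and without the Aspn-dependent cells for several members. Of 20 genes 19 were tested. With all 135 cells 10 were called higher and none lower than in the reticular gate (median 1.41), and none higher and 10 lower than in the preosteoblast gate (median -1.13). Restricted to the 71 cells, 3 were called higher and 6 lower than in the reticular gate, and none higher and 13 lower than in the preosteoblast gate. Limch1 was at 310 and 359 CPM in all Aspn-set cells against 229 and 216 in the reticular gate, and went from 0.60 (adjusted p = 0.0202) with all cells to -3.43 (5.48e-04) with the 71. Kcnk2 went from 0.97 (0.00439) to -2.61 (1.90e-04). Both genes were called in opposite directions by the 2 sets of cells.

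Sp7 was at 67.5 and 34.8 CPM against 24.6 and 17.8, with 1.06 (adjusted p = 0.0648) in all cells, 1.13 (0.00469) with mouse as a block, and -2.09 (0.0257) in the 71. Smpd3, a sphingomyelinase needed for mineralization, went from 2.33 (0.0252) to -0.56 (0.786), Car3, a carbonic anhydrase, from 3.22 (1.55e-04) to -0.54 (0.539), and Pth1r, the parathyroid hormone receptor, from 1.00 (0.00215) to -0.19 (0.383). Genes that kept a higher call in the 71 cells were Col1a1, Spp1, which encodes osteopontin, and Ank, a pyrophosphate transporter that limits mineralization. Spp1 was at 684 and 1384 CPM against 378 and 407 in the reticular gate and 8409 and 6185 in the preosteoblast gate, and 132 of its 294 UMIs in Mouse #1 came from 1 cell. Runx2, the master regulator of the osteoblast lineage, was at 175 and 183 CPM against 213 and 218 in the reticular gate (adjusted p = 0.184) and was called lower than in the preosteoblast gate at 328 and 296. In the 71 cells Runx2 was called lower than in both gates, at -1.36 (edgeR adjusted p = 0.00365) and -1.93 (7.39e-04). Since the 64 cells left out were those with few UMIs of 3 rule genes, both sets of values depend on the choice of cells.

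**Figure D3:**
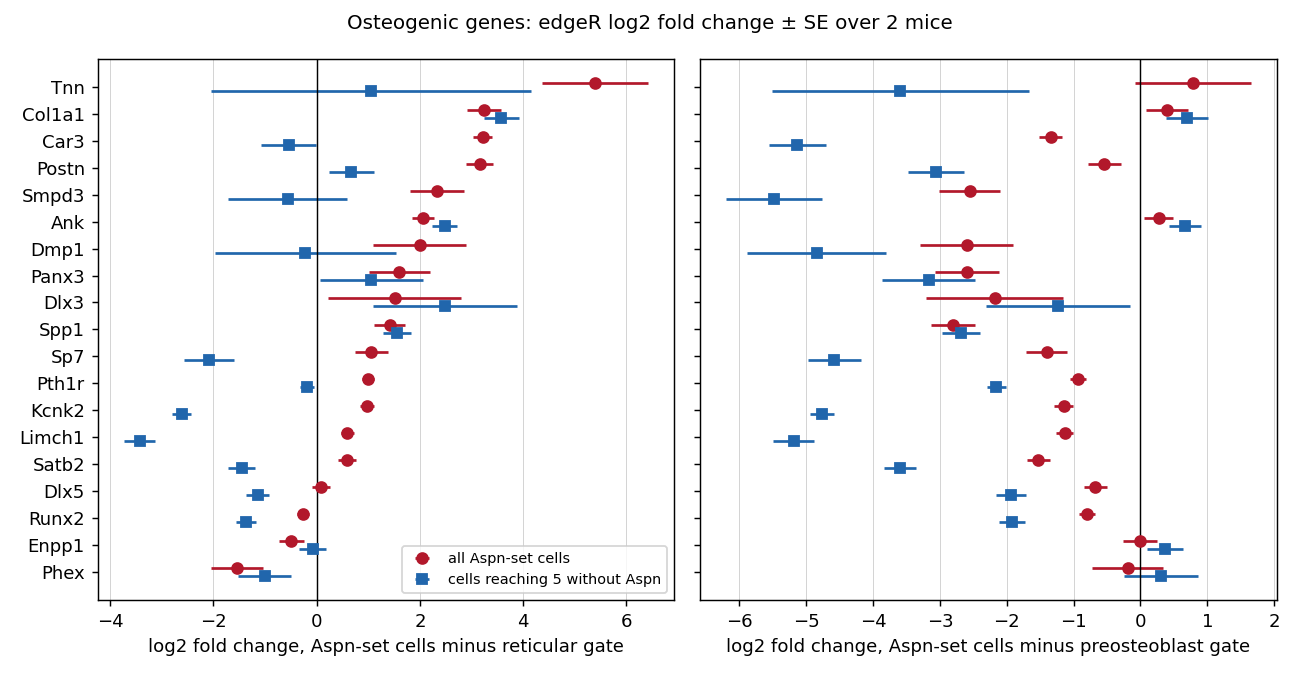
Log2 fold changes from edgeR of the 19 tested osteogenic genes, against the reticular gate on the left and the preosteoblast gate on the right. Red circles are all 135 Aspn-set cells and blue squares the 71 cells that reached the limit without Aspn. Bars are standard errors derived from edgeR's F statistic. Against the reticular gate Limch1 is at 0.60 with all cells and at -3.43 with the 71, and against the preosteoblast gate no gene was called higher with either set.

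Niche factors of reticular cells were low. Of 19 listed and tested, 16 were called lower and 1 higher than in the reticular gate (median -2.06), and 16 lower and 2 higher with the 71 cells alone. Cxcl12, the chemokine gene whose allele carries GFP in these mice, was at 1264 and 788 CPM against 7609 and 8055, a log2 fold change of -2.94 (adjusted p = 8.26e-04). Esm1, which encodes endocan, was at 27.9 and 25.1 CPM against 933 and 1048, with -5.26 ± 0.25 (9.86e-05). Lepr, the leptin receptor, was at 344 and 323 CPM against 808 and 1070, and Vcam1 at 235 and 379 against 1575 and 1595. The gene called higher was Il6, at 212 and 165 CPM against 15.4 and 14.5 (3.62, adjusted p = 0.00132), with a UMI in 40 cells. In Mouse #1, 43 of its 91 UMIs came from 1 cell.

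Against the preosteoblast gate 8 niche factors were called higher and 1 lower (median 0.56), with 9 and 3 in the 71 cells and 8 and 2 with mouse as a block. Igf1 was at 796 and 1403 CPM against 213 and 228, a difference of 2.33 (adjusted p = 0.00272). Lepr was at 344 and 323 against 141 and 189. Of 14 listed adipogenic genes 10 were tested, and none was called higher and 4 lower than in the reticular gate (median -1.20), and 1 higher and 2 lower than in the preosteoblast gate (median 0.54), with none and 4, and 1 and 3, in the 71 cells. Pparg, the master regulator of adipogenesis, was at 11.6 and 10.2 CPM against 68.3 and 61.0 in the reticular gate, a gate that Adipoq, Lpl and Hp defined.

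Members of the Igf system were called higher than in preosteoblasts for 7 of 9 tested genes (of 10 listed) and lower for none (median 2.30), with the same counts in the 71 cells. Against the reticular gate 4 were called higher and 2 lower (median 0.52), and 5 and 1 in the 71 cells. Igf2 was at 137 and 236 CPM against 35.7 and 35.8 and against 13.2 and 16.2, with differences of 2.46 (adjusted p = 7.83e-04) and 3.72 (4.27e-04). Of its UMIs, 28 of 59 in Mouse #1 and 113 of 461 in Mouse #2 came from 1 cell each. Igfbp4, which binds and restrains Igf ligands, was lower than in the reticular gate, at 1897 and 1522 CPM against 4764 and 3825.

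Of 27 listed Wnt ligands and modulators 18 were tested, and 5 were called higher and 5 lower than in the reticular gate (median 0.81), and 4 higher and 2 lower than in the preosteoblast gate (median 0.11). Ligands of this list went both ways. Wnt5a was at 72.2 and 85.4 CPM against 13.5 and 12.9 and against 26.1 and 34.0, and Wnt9a at 18.6 and 22.0 against 1.23 and 1.13 and against 1.41 and 0.618, both called higher in both comparisons. Wnt4 was at 23.3 and 36.3 CPM against 108 and 135 and against 127 and 190, called lower in both. Among modulators, Rspo2, which strengthens Wnt signals, was at 9.31 and 9.72 CPM against 72.6 and 77.8 in the reticular gate, a log2 fold change of -2.96 (adjusted p = 2.33e-04). The 71 cells gave 6 and 4, and 5 and 6, and with mouse as a block 5 and 4 in the second.

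Of 25 listed BMP and TGF-beta genes 22 were tested, and 5 were called higher and 7 lower than in the reticular gate (median 0.26), and 6 higher and 3 lower than in the preosteoblast gate (median 0.47), with 5 and 7, and 9 and 4, in the 71 cells. Gdf10, a TGF-beta family ligand, was at 307 and 88.5 CPM against 16.5 and 10.3 and against 20.9 and 30.4. The receptors differed in direction. Tgfbr2, the ligand-binding receptor, was at 165 and 166 CPM against 47.5 and 52.4 and against 39.3 and 43.3, and Tgfbr3, the coreceptor betaglycan, at 69.8 and 61.4 against 422 and 440 in the reticular gate. Of 32 listed secreted growth and guidance factors 26 were tested, and 7 were called higher and 6 lower than in the reticular gate (median -0.16), and 4 higher and 1 lower than in the preosteoblast gate (median 0.13). Sema3c, a guidance factor, was at 41.9 and 22.5 CPM against 0.132 and 0.630 in the reticular gate, and Vegfc, a lymphatic growth factor, at 48.9 and 25.1 against 241 and 238. The 71 cells gave 5 and 6, and 6 and 5, and mouse as a block 6 and 2 in the second.

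Of 32 listed mesenchymal transcription factor genes 30 were tested, and 6 were called higher and 5 lower than in the reticular gate (median 0.13), and 8 higher and none lower than in the preosteoblast gate (median 0.47), with 7 and 6, and 12 and 1, in the 71 cells. Meox2, a homeobox gene of mesoderm, was at 121 and 39.4 CPM against 1.01 and 2.68 and against 0.940 and 0.00, from 39 cells. Gli1, a target and effector of hedgehog signaling, was at 32.6 and 13.8 CPM against 0.220 and 0.210 in the reticular gate, a difference of 6.49 (adjusted p = 0.00135). Ebf3 and Foxc1, which reticular cells are known for, were lower than in the reticular gate, Ebf3 at 65.2 and 63.4 CPM against 351 and 372 and Foxc1 at 186 and 170 against 358 and 379. Of 16 listed posterior Hox genes 12 were tested, and 1 was called higher and 1 lower than in the reticular gate (median 0.06), and none in either direction from the preosteoblast gate by edgeR (median 0.13), where 5 had an unadjusted p under 0.05 and DESeq2 called 2. Against the reticular gate 2 of the 12 Hox genes were thus called, near the 15.8% called over all genes, so the count is no trait of the list. The gene called higher there was Hoxc10, at 65.2 and 68.6 CPM against 35.7 and 36.8, and the gene called lower was Hoxa9, at 39.6 and 25.1 against 80.5 and 88.0. In the 71 cells the Hox counts were none and 2, and 2 and 2, and with mouse as a block 1 and none in the second.

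Of 16 listed markers of skeletal and periosteal stem cells 14 were tested, and 5 were called higher and 1 lower than in the reticular gate (median 0.87), and 5 higher and 2 lower than in the preosteoblast gate (median 0.22). Ly6a, the Sca-1 antigen, was at 521 and 581 CPM against 2.68 and 14.3 and against 1.41 and 2.06, with differences of 5.98 (adjusted p = 0.00189) and 8.22 (0.00178). After thinning Ly6a had a UMI in 40.9% and 42.0% of Aspn-set cells and in 75.9% and 69.1% of endothelial-gate cells. Ctsk, a collagen-degrading cathepsin also used to mark periosteal cells, was at 398 and 318 CPM against 190 and 201 and against 162 and 130, called higher in both. Acta2, smooth muscle actin, was at 14 and 38.4 CPM against 197 and 153 in the preosteoblast gate, called lower. In the 71 cells the counts were 7 and 1, and 5 and 4.

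Of 15 listed complement and acute phase genes 14 were tested, and 2 were called higher and 7 lower than in the reticular gate (median -0.40), and 6 higher and 2 lower than in the preosteoblast gate (median 1.62). C1s1, a protease of the classical complement pathway, was at 363 and 235 CPM against 127 and 157 and against 16.5 and 21.3, whereas Clu, which encodes clusterin, was at 76.8 and 61.9 against 453 and 482 in the reticular gate. Lcn2, 1 of the 7 called lower there, was at -5.25 (edgeR adjusted p = 0.00132). It was at -0.79 (0.294) without the 53 and 65 reticular-gate cells that had 50 or more myeloid and erythroid marker UMIs per 10000. In the 71 cells the counts were 4 and 6, and 8 and 2, and mouse as a block gave 5 and 7 in the first. Of 15 immediate early and heat shock genes, 1 was called higher and 3 lower than in the reticular gate (median -0.37), and 5 higher and none lower than in the preosteoblast gate (median 0.48). Jun was at 880 and 854 CPM against 2025 and 1918 in the reticular gate, and Nr4a1, an orphan nuclear receptor induced by stimulation, at 545 and 556 against 178 and 161 in the preosteoblast gate. These genes also respond to tissue digestion, whose part was not tested. The 71 cells gave 1 and 2, and 7 and 1, and mouse as a block 1 and 7 in the first and 6 and 1 in the second.

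Of 16 cell cycle genes edgeR called none in either direction from the reticular gate (median -0.21), where 0 had an unadjusted p under 0.05 and DESeq2 called 0, and none higher and 2 lower than in the preosteoblast gate (median -1.43). Mki67, the proliferation antigen, was at 23.3 and 13.8 CPM against 101 and 90.9 in the preosteoblast gate, and all of its UMIs came from 2 cells, 1 in each mouse. Top2a, the topoisomerase of dividing cells, was at 25.6 and 37.4 against 99.4 and 123, and 10 of its 11 UMIs in Mouse #1 and 63 of 73 in Mouse #2 came from 1 cell each. In the 71 cells the counts were none and 1, and none and 4, and with mouse as a block none and 5 in the second.

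**Figure D4:**
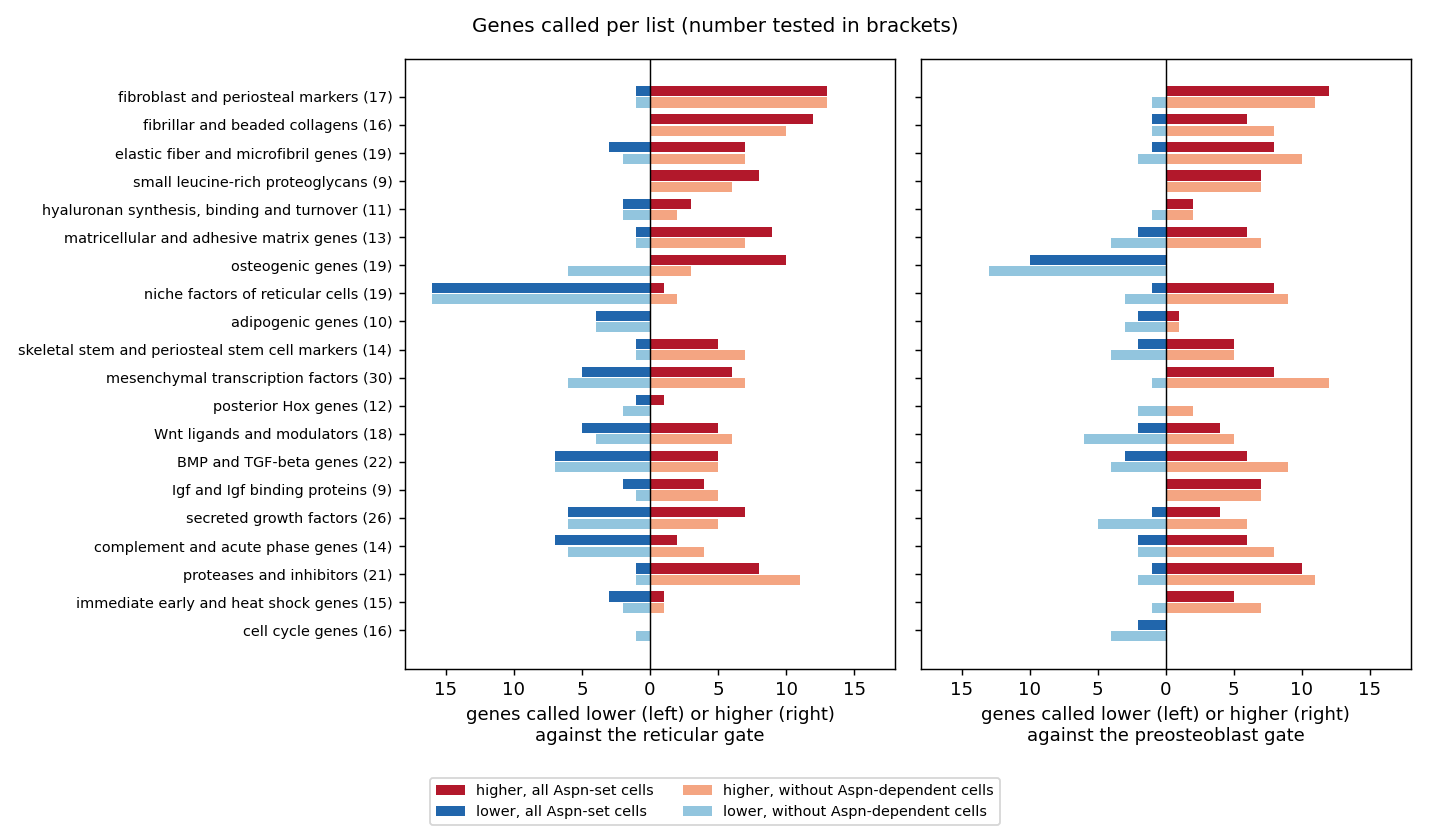
Number of genes called lower (to the left) or higher (to the right) in each of 20 gene lists, with the number tested in brackets, against the reticular gate (left panel) and the preosteoblast gate (right panel), for all 135 Aspn-set cells (upper bar) and the 71 that reached the limit without Aspn (lower bar). Niche factors show 16 lower against the reticular gate, and osteogenic genes change from 10 higher and none lower to 3 higher and 6 lower.

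The genes lowest in Aspn-set cells included reticular genes and genes of blood cells. Cbln1, a cerebellin, had 2 UMIs in Aspn-set cells against 147 and 78.1 CPM in the reticular gate, lower by a ratio of 129 (counting interval 35.8 to 1068), and its relative Cbln2 had 0 UMIs, at least 17.9-fold lower. Il1rn, the interleukin-1 receptor antagonist, was at 4.66 and 6.65 CPM against 515 and 519, with -6.37 ± 0.28 (adjusted p = 8.55e-05). Angptl1 was lower by a ratio of 56.6 (15.6 to 467) and Tmem178, a transmembrane protein gene, was at -5.34 ± 0.52 on the log2 scale (0.00104). Chil3 and Ngp, genes of myeloid cells, were also lower, by a ratio of 97.8 (27.1 to 808) and at a log2 fold change of -6.03 ± 0.69. Myeloid markers summed to 7612 and 2939 UPM in the reticular gate against 183 and 131 in Aspn-set cells. Without the 53 and 65 reticular-gate cells that had 50 or more myeloid and erythroid marker UMIs per 10000, Chil3 was at -2.0 (adjusted p = 0.158) and Ngp at -1.04 (0.160), whereas Il1rn stayed at -6.41 (6.04e-05).

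Against the preosteoblast gate the lowest were Col2a1, the cartilage collagen, with 2 UMIs in Aspn-set cells against 95.2 and 44.2 CPM (ratio 74.3, counting interval 20.5 to 614), and 4 hemoglobin genes. Hba-a2, Hba-a1, Hbb-bt and Hbb-bs were at -5.35, -5.35, -4.91 and -4.75. Erythroid markers summed to 4861 and 11679 UPM in the preosteoblast gate against 265 and 246 in Aspn-set cells. Without the 2 and 9 cells of that gate at or over the same limit these genes were at -0.12, -0.17, -0.19 and -0.20 (adjusted p = 0.433 to 0.838). No Aspn-set cell reached that limit. Of bone genes, Ifitm5, a membrane protein of mineralizing osteoblasts, was at 0.00 and 3.07 CPM against 47.2 and 54.3 (-4.35 ± 0.74, adjusted p = 0.0140), Col22a1 was at -4.29 ± 0.66 (0.00908) and Tmem178 at -3.73 ± 0.60 (0.0110).

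Transcripts of the sort marker and of the lineage reporter were low beside reticular cells. The eGFP feature was at 3135 and 1475 UPM in Aspn-set cells of Mouse #1 and Mouse #2, at 11232 and 11163 in the reticular gate, at 1946 and 1067 in the preosteoblast gate, and at 486 and 1098 in the hematopoietic gate. Free-RNA barcodes held 3311 and 3461. In Mouse #1, 429 of the 1374 eGFP UMIs of Aspn-set cells came from 1 cell. The eGFP difference was -2.23 (adjusted p = 0.00956) from the reticular gate and 0.66 (0.314) from the preosteoblast gate. Cxcl12 itself was at 1239 and 761 UPM against 382 and 613 in the hematopoietic gate and 3784 and 3614 in free-RNA barcodes, and differed by 0.38 (adjusted p = 0.393) from the preosteoblast gate. In Mouse #1, 176 of its 543 UMIs came from 1 cell. After thinning, eGFP was in 68.2% and 63.4% of Aspn-set cells and in 15.5% and 16.8% of hematopoietic cells, and Cxcl12 in 59.1% and 58.9% against 17.4% and 28.2%. Both shares exceeded those of the hematopoietic gate in each mouse, whereas the levels were under those of free-RNA barcodes.

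The tdTomato feature was at 119 and 175 UPM in Aspn-set cells, 683 and 1002 in the reticular gate, 40.8 and 76.0 in the preosteoblast gate, 45.3 and 103 in the hematopoietic gate and 333 and 502 in free-RNA barcodes. It was lower than in the reticular gate, with a log2 fold change of -2.41 (adjusted p = 0.00499), and from the preosteoblast gate it differed by 1.42 (0.0509), or 1.39 (4.59e-04) with mouse as a block. In Mouse #1, 47 of 52 UMIs came from 1 cell. Over the level that 99% of hematopoietic cells stayed under, 1 of 22 (4.55%, Wilson interval 0.807 to 21.8) and 4 of 113 (3.54%, 1.39 to 8.75) Aspn-set cells were tdTomato-positive, against 33.6% and 34.5% of reticular-gate cells. Thinned shares with a UMI were 13.6% and 14.3%, against 6.59% and 9.41% in hematopoietic cells, a difference within the counting intervals of the Aspn-set shares (4.75 to 33.3 and 8.99 to 21.9). The recombinase feature iCreER had 0 and 1 UMI in Aspn-set cells and 918 in the reticular gate, a ratio of 37.6 (counting interval 6.72 to 1485). By subcluster tdTomato was at 304, 21.7, 205 and 15.7 UPM. The added features EYFP, which is nearly identical in sequence to eGFP, and mCherry, Cre and CreER had 0 UMIs in Aspn-set cells. Reads that fit both eGFP and EYFP may have been left out of the counts.

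**Figure D5:**
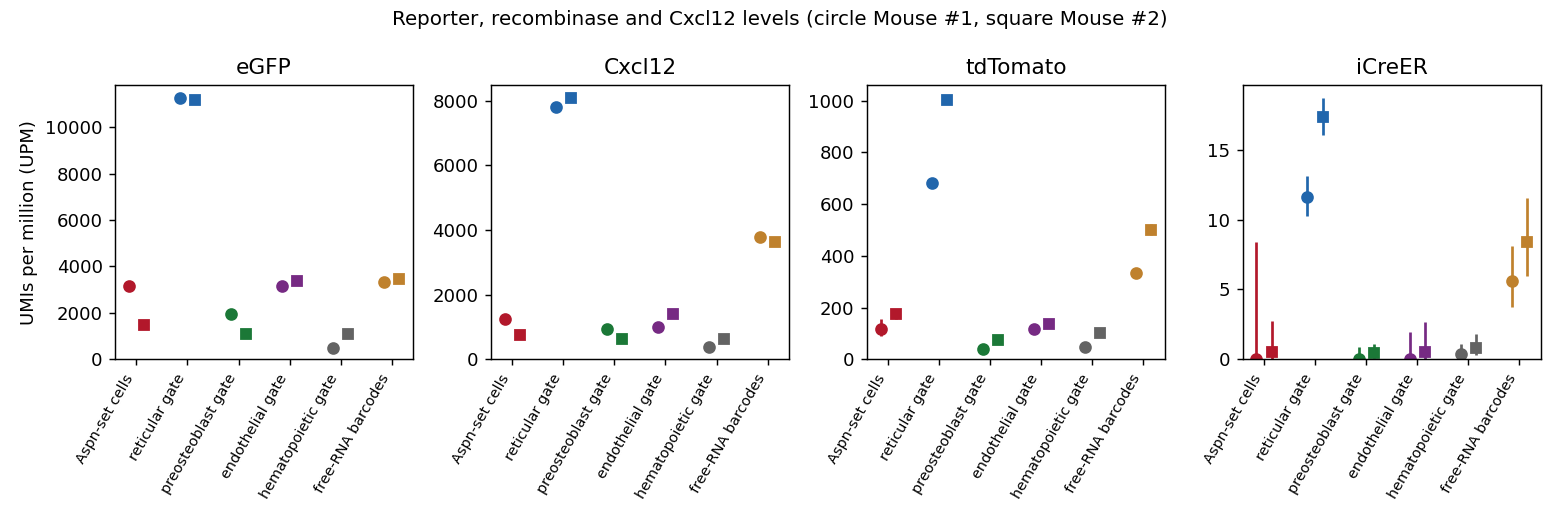
Levels as UMIs per 1000000 (UPM) of eGFP, Cxcl12, tdTomato and iCreER in 5 gates and in free-RNA barcodes of 1 to 100 UMIs, for Mouse #1 (circles) and Mouse #2 (squares), with exact Poisson intervals and axes that start at 0. In Aspn-set cells eGFP is at 3135 and 1475 and tdTomato at 119 and 175, both below the reticular gate of the same mouse.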

How the data were processed

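Cells of the femurs of 2 mice were profiled by 10x 3' single-cell RNA-seq, 1 library per mouse. The values used are UMI counts per gene and barcode in the raw matrices that the authors deposited, made with Cell Ranger 3.0.0 per the file headers on mm10, with 28006 features and 6794880 barcodes in each. No replicates were pooled and no normalization had been applied. The totals were 54940400 and 88790688 UMIs. Barcodes were kept as cells from 1000 genes upwards, if no more than 15% of their UMIs were mitochondrial (2750 and 4582). The members, the gates and the gene lists were chosen with earlier results of these data known.

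UMIs were summed per mouse and gate, and 3 classes were compared in 1 edgeR 4.0.16 quasi-likelihood fit (R 4.3.3) with TMM scaling and filterByExpr, p-values were adjusted by Benjamini-Hochberg across every gene tested, and 14 gate genes were left out of counts. The study's own test over cells was not used, since cells of a mouse are not replicates. Genes named in each comparison were the 12 highest and the 8 lowest by log2 fold change among called genes that went the same way in both mice, reached a mean of 20 CPM in the higher class and were no gate gene, gene model or mitochondrial gene, together with members of 20 gene lists and 16 marker lists of cell types. Il6, Sp7 and other list members were selected as examples after their values were seen. The method was tested on simulated counts, drawn independently for each sum. They held no effect of the mouse and no gating of cells by transcripts, so that run does not cover either. A floor of 3 counts was used for genes without UMIs, and Wilson (95%) and exact Poisson intervals cover counting error only.

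Sums of the same mouse come from the same animal, and their deviations from the class means correlated at 0.117, 0.115 and 0.274 over 12564 genes, so the fit with mouse as a block is given where it changes the call of a gene printed or moves a count of calls by over 1.5 times. Subclusters were found with scanpy 1.11.5 and leidenalg 0.10.2 on 1000 variable genes, 10 components and 10 neighbors. Scrublet called 6 and 3 cells, under 0.5% of each library, and was not relied on, so doublets were kept, and an alternative left out the 60 and 168 highest scores. For shares of cells with a UMI each cell was thinned to 2000 UMIs. Promoter sequences came from RefSeq, and gene coordinates from GENCODE on GRCm38. Alternatives changed the scaling, the tool (DESeq2 1.42.0), the filter, the block, the classes fitted, the number of cells, the limits and the rule.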

Additional observations from a re-analysis of the deposited data

How the results depend on the processing

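Counts of genes called, in all or in 1 direction, moved by more than 1.5 times under 8 of 14 settings, and genes lower than in the preosteoblast gate ranged from 102 to 1183 against 293. Without a filter on low counts 3124 genes were called against the reticular gate (1688 lower) and 2276 against the preosteoblast gate (1324 higher, 952 lower), over 19417 genes in place of 12552. Equal numbers of cells per gate and mouse gave 731 (435 higher, 296 lower) and 522 (420 higher, 102 lower) over 8960 genes, and 711 and 496 of the original calls were called again with the same sign. Genes lower than in the preosteoblast gate numbered 447 with DESeq2, 180 with only the 2 classes fitted and 508 with the rule sum at 10 per 10000. Some alternatives were added after the data were seen. Against the preosteoblast gate the 71 cells gave 2523 calls (1340 higher, 1183 lower), the cells under 5 per 10000 of Alpl, Ibsp and Mmp13 gave 2498 (1463 higher, 1035 lower), and a limit on Adipoq and Hp alone, without Lpl, gave 2225 (1449 higher, 776 lower). The cause of these differences was not tested.

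With mouse as a block 2244 and 1381 genes were called. Of the differences given in the text the block changed the calls of Sp7 and tdTomato, and of other genes named it also brought Kitl against the preosteoblast gate (-0.73) and Hspa1a (-1.26) and Hspa1b (-1.18) against the reticular gate under the threshold. It changed no other call among the 111 list and rule genes that were followed across the settings. Fold changes that turned direction against the reticular gate are given for the 71 cells and then for the cells under 5 per 10000 of Alpl, Ibsp and Mmp13. They were -0.38 and -0.31 for Col12a1, -2.09 and -2.71 for Sp7, -0.19 and -0.22 for Pth1r, -0.56 and -0.29 for Smpd3, -2.61 and -3.46 for Kcnk2, -3.43 and -4.80 for Limch1, and -0.54 and -2.26 for Car3. Limch1 was at -0.34 with the limit on Adipoq and Hp alone, and at 0.45 (edgeR adjusted p = 0.0578) under the stricter cell filter of 2000 genes and 10% mitochondrial UMIs. With the rule sum at 3 per 10000, Hba-a2 was at 0.16 and Hbb-bt at 0.065 against the reticular gate.

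The eGFP difference from the preosteoblast gate passed the threshold without a filter (0.628), and that of Cxcl12 did so in cells under 5 per 10000 of Alpl, Ibsp and Mmp13 (0.73) and with the limit on Adipoq and Hp alone (1.13). The tdTomato difference from that gate passed with DESeq2 (1.39), no filter (1.39), the block (1.39), 2 classes (1.41), the stricter cell filter (1.501), the highest Scrublet scores left out (1.485), the 71 cells (1.81), cells under 5 of the preosteoblast sum (1.30), the limit on Adipoq and Hp alone (2.11) and comparison cells low in blood markers (1.41). Leaving out a mouse left 1 sum per gate, which gave values without a test, and of 222 fold changes of named genes 38 without Mouse #1 and 73 without Mouse #2 moved by more than the spread between mice. The tdTomato difference from the reticular gate was then -2.49 to -2.47. Over both mice 1.83% of cells outside the hematopoietic gate were Aspn-set cells on average, and 4.01% with the limit on Adipoq and Hp alone. The mean share that was tdTomato-positive was 4.04%, and 4.98% with the highest Scrublet scores left out, 4.94% in the 71 cells, 7.27% with the limit on Adipoq and Hp alone, 5.37% with a hematopoietic gate low in Adipoq and Lpl, and 13.96% when a UMI after thinning was counted. There were 4 subclusters, and 2 or 7 at the other resolutions. The 22 cells of Mouse #1 limit the precision of each value from that mouse.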

Other observations

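Of 303 cells that reached 5 per 10000 of the 4 rule genes, 158 (58 in Mouse #1 and 100 in Mouse #2) were kept out of the Aspn-set by the limit on Adipoq, Lpl and Hp, more than the 135 that were kept. In these cells Lpl, which encodes lipoprotein lipase, was at 2005 and 1823 UMIs per 1000000 (UPM), whereas Adipoq, the adiponectin gene, was at 40.2 and 39.9. A limit on Adipoq and Hp alone would have kept 52 and 89 of them. Aspn was at 1012 and 1097 UPM there, Mgp at 4738 and 2565, Apod at 1397 and 649 and Cxcl12 at 2698 and 2068. In both mice Cxcl12 was thus higher than in the Aspn-set cells (1239 and 761) and lower than in the reticular gate (7799 and 8067). Of the 158 cells, 27 and 40 reached 5 per 10000 without Aspn. These levels are descriptions of cells chosen by their transcripts and were not tested.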
